A study of Homo sapiens with 17 samples.

Results

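SLC1A5 was the gene with the most T>C counts in both libraries from cells that received no thiouridine, and it is described here with 4 other genes of amino acid transport, SLC7A5, SLC3A2, SLC38A1 and SLC38A2. The 5 genes are 5 of the 19867 listed in the table. SLC1A5 was chosen by its unlabelled counts, and the other 4 genes by what they do. The unlabelled counts of SLC1A5 are therefore given as a description, and the changes with treatment were tested. The genes and tests were chosen with earlier results of these data known.

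The cells were SNU-761, a wild-type human liver carcinoma line, and SLAM-seq was used to count RNA made in the presence of thiouridine, which, once alkylated with iodoacetamide, makes a T appear as C in the reads. VT107, an inhibitor of the TEAD transcription factors, was given at 0.1 µM or at 2.15 µM and compared with DMSO, with 2 labelled libraries per group. An intetumumab biosimilar, an antibody against ITGAV/ITGB3, was given at 1.5 or 5 µg/ml, and its control was 5 µg/ml of an isotype IgG1 from human myeloma plasma, again with labelled libraries only (n = 3 in each group). All treated and control cells were collected at 4 h, and each of the 2 experiments had 1 unlabelled library. The unlabelled libraries are named as untreated, with no dose or time given. They may thus differ from the DMSO and isotype libraries in more than thiouridine. All groups are of 1 cell line, and nothing in the labels says that libraries of a group came from separate cultures, so each p-value speaks only of spread among libraries, which may be technical. The labelled libraries held 435343 to 1778876 counts, and the highest totals of the VT107 experiment were the 1778876 and 1247990 counts of the 2.15 µM libraries. Markers of the labelled cell type were not checked here, because the table pairs no gene names with its IDs.

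Cells take up neutral amino acids through carriers that work together at the plasma membrane. SLC1A5 (ASCT2) exchanges neutral amino acids, glutamine among them, with the help of sodium, and SLC38A1 and SLC38A2 carry glutamine and other small neutral amino acids inward with sodium. SLC7A5 (LAT1) brings in leucine and other large neutral amino acids in exchange for intracellular ones, and it reaches the membrane as a heterodimer with the glycoprotein SLC3A2 (4F2hc). SLC1A5 and SLC7A5 are often raised in tumours, and SLC38A2 is known for its induction when amino acids are scarce.

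On build GRCh38.p14, RefSeq places SLC1A5 (ENSG00000105281) at chr19:46774883-46788594, SLC7A5 (ENSG00000103257) at chr16:87830023-87869507 and SLC3A2 (ENSG00000168003) at chr11:62856109-62888860. SLC38A1 (ENSG00000111371) lies at chr12:46183063-46269043 and its neighbour SLC38A2 (ENSG00000134294) at chr12:46358188-46372773. SLC3A2 is on the plus strand and the other 4 genes are on the minus strand. RefSeq's table gives 10 promoter windows of 300 bases for the 5 genes, of which 3 belong to SLC1A5. They are shown because VT107 acts on TEAD factors and SLC1A5 had the largest fold change of the 5 genes with VT107. They were searched on both strands for GGAATG, the core bound by TEAD factors, for TGATGCAA, a core of the composite element of ATF4 and C/EBP factors, and for CACGTG, the E-box bound by MYC among others. Capitals mark the matches, and each window is written 5′ to 3′ on the minus strand.
SLC1A5 window chr19:46784765-46785064: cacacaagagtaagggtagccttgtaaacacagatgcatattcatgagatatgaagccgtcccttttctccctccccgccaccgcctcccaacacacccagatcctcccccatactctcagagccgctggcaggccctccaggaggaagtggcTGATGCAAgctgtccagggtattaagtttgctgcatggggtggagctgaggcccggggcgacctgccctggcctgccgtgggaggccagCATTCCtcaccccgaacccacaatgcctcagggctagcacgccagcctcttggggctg
SLC1A5 window chr19:46787244-46787543: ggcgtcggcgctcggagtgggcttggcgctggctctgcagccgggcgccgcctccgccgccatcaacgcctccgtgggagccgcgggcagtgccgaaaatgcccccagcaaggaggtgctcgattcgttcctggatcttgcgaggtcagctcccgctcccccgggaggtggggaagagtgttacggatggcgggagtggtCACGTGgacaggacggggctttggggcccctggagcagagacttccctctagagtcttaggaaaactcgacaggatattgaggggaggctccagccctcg
SLC1A5 window chr19:46788545-46788844: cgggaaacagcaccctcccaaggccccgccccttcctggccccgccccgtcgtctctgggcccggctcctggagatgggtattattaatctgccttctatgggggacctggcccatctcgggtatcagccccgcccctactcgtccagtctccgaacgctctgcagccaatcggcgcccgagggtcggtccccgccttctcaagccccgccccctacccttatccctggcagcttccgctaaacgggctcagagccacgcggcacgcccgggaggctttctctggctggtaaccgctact
The first window holds TGATGCAA, and it holds GGAATG on the other strand, which reads CATTCC here. The second holds CACGTG, and the third, at the outermost start of the gene, holds none of these letters. No matches overlapped. Of all 35116 windows, 14% held GGAATG, 0.866% held TGATGCAA and 7.26% held CACGTG. Among the other 7 windows of the 5 genes, the only match was CACGTG in the SLC7A5 window. A match is a description of the letters and not a site of binding.

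SLC1A5 had 388 T>C counts in the unlabelled library of the VT107 experiment, which was 3.63% of the 10702 counts of that library (exact 95% interval 3.28 to 4.00%). In the unlabelled library of the intetumumab experiment it had 396 of 4553 counts, or 8.7% (7.89 to 9.55%). The intervals are Clopper-Pearson intervals, which cover counting error only and take each count as independent. Both SLC1A5 counts are multiples of 4, so the intervals may be too narrow even for that error. With 1 unlabelled library per experiment the values have no replicate check. The unlabelled counts were 46.8% of the mean SLC1A5 count of the 6 labelled VT107 libraries (830) and 58.2% of that of the 9 labelled intetumumab libraries (680). The whole unlabelled libraries held 0.949% and 0.628% of the mean labelled total, so SLC1A5 stood far above the share of the library as a whole. The number of reads sequenced from the unlabelled libraries is not given in the files used here, so the counts are raw and not adjusted for sequencing depth.

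The other 4 transporters had between 0 and 6 unlabelled counts. SLC7A5, the leucine carrier, had 6 unlabelled counts in the VT107 experiment, 3.07% of its labelled mean, and 0 in the intetumumab experiment. SLC38A2 had 1 and 2 counts, 0.137% and 0.712% of its labelled means. As a share of the library, SLC7A5 was 3.16 times as frequent without label as with it in the VT107 experiment, and SLC38A2 was 0.143 and 1.12 times as frequent, where SLC1A5 was 51 and 92.2 times as frequent. SLC3A2 and SLC38A1 had 0 counts in both, which allows a share of up to 0.028% of the unlabelled VT107 library and 0.0659% of the unlabelled intetumumab library if 3 counts are taken as the limit. The exact 95% upper limits are 0.0345% and 0.081%. Of the 5 genes, only SLC1A5 had unlabelled counts above 6, at 46.8% and 58.2% of its labelled means. SLC1A5 was chosen by those counts, so this contrast follows from the choice. Among the genes with at least 10 unlabelled counts, which numbered 214 with VT107 and 60 with intetumumab, SLC1A5 ranked 10 and 6 by the ratio of unlabelled count to labelled mean. The median ratio of those genes was 3.63% and 17.3%.

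**Figure D1:**
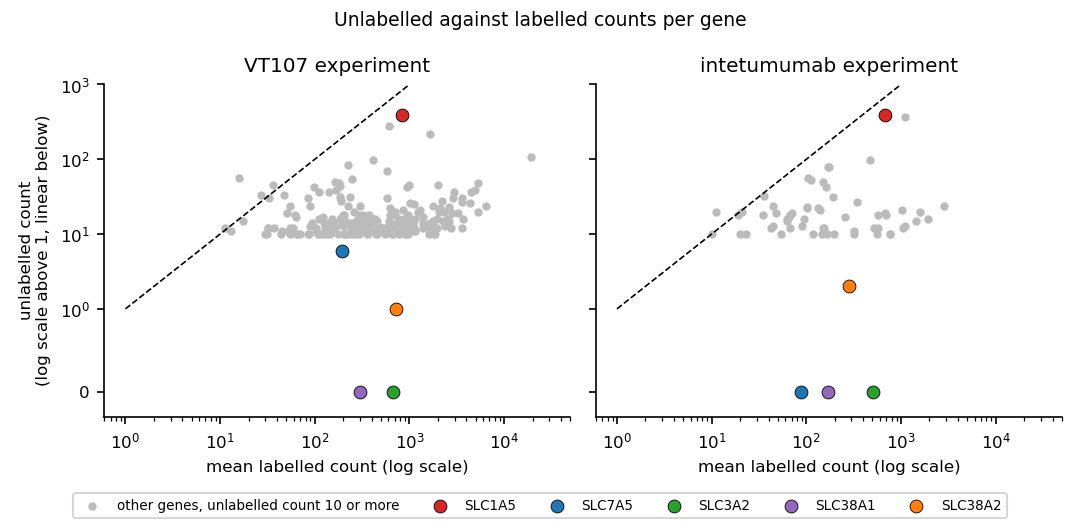
Unlabelled T>C count (vertical axis, log scale above 1 and linear below) against the mean labelled count (horizontal axis, log scale) for each gene with at least 10 unlabelled counts (grey) and for the 5 transporters (coloured), with VT107 at left and intetumumab at right. The dashed line marks equal counts. SLC1A5 is the highest point in both panels, at 388 and 396 unlabelled counts, and the other 4 transporters lie at 6 counts or fewer.

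Among the VT107 libraries, raw SLC1A5 counts were 584 and 661 at 0.1 µM and 1566 and 1380 at 2.15 µM, against 408 and 380 with DMSO. The second DMSO library thus held fewer SLC1A5 counts than the 388 of the unlabelled library, and the first held 1.05 times as many. The VT107 libraries lay at 1.51 and 1.7 times the unlabelled count at 0.1 µM and at 4.04 and 3.56 times at 2.15 µM. Taking 388 from each library leaves 196 and 273 counts at 0.1 µM and 1178 and 992 at 2.15 µM, against 20 and -8 with DMSO. These multiples and remainders use 388 unscaled, though the 2.15 µM libraries had the highest totals. The 388 was also scaled by library total over the mean labelled total. This left 293 and 389 at 0.1 µM and 954 and 951 at 2.15 µM, against 63 and 1 with DMSO. That scaling was chosen after the data were seen. Both subtractions take the unlabelled library as sequenced like the labelled ones, which is not known. The remainders are thus not levels of new SLC1A5 RNA. With intetumumab the counts were 672, 836 and 440 at 1.5 µg/ml, and the 5 µg/ml libraries had 475, 804 and 560, against 584, 776 and 976 with the isotype. All 9 of those libraries lay above the unlabelled 396, at 1.11 to 2.46 times that count.

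**Figure D2:**
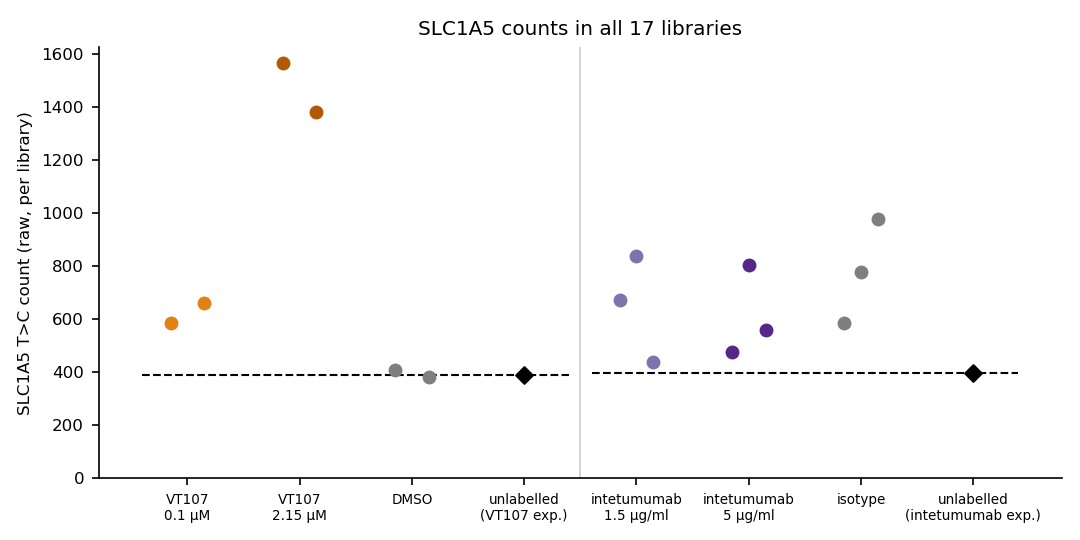
Raw SLC1A5 T>C counts per library by group (points), with the count of the unlabelled library of the same experiment as a line. The 2 DMSO libraries, at 408 and 380, sit at the unlabelled count of 388, and the 2 libraries at 2.15 µM VT107, at 1566 and 1380, lie highest of all.

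Scaled to library size (CPM, counts per 1e6 after TMM scaling), SLC1A5 measured 688 and 830.3 CPM at 0.1 µM VT107 and 847 and 1064 CPM at 2.15 µM, against 438 and 367 CPM with DMSO. Every VT107 library lay above both DMSO libraries, and the 2 doses did not overlap. In a bulk sample, more cells with a transcript and more of it per cell cannot be told apart. The means were 759 ± 101 CPM at 0.1 µM and 956 ± 153 CPM at 2.15 µM, against 403 ± 49.9 CPM with DMSO (SD, n = 2 each). The counts behind these values had no unlabelled signal taken off, and the unlabelled count was 98.5% of the DMSO mean count. A fold change in them is thus not one of new SLC1A5 RNA alone. The log2 fold change was 0.92 (SE 0.21, 95% interval 0.44 to 1.39) at 0.1 µM and 1.25 (SE 0.21, 0.77 to 1.72) at 2.15 µM, or 1.89-fold and 2.37-fold. By edgeR's quasi-likelihood F-test with Benjamini-Hochberg adjustment over the 10083 genes tested, neither passed the threshold of 0.05, with adjusted p = 0.192 (unadjusted 0.00204) and adjusted p = 0.0846 (unadjusted 0.000273). SLC1A5 ranked 107 by p at 0.1 µM and 31 at 2.15 µM. The doses differed by 0.33 (SE 0.2, interval -0.13 to 0.8, adjusted p = 0.967), which is not larger than the spread between replicates. The call rests on the setting: DESeq2 gave adjusted p = 0.00405 at 0.1 µM and 5.74e-06 at 2.15 µM, and edgeR without the filter on low counts gave 0.0345 and 0.00129. With the unlabelled count subtracted, the DMSO libraries hold 20 counts and none, so no fold change is given on that scale. The libraries at 2.15 µM also had the highest totals, whose part in the result was not tested.

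None of the 5 transporters was called at an adjusted p under 0.05 with VT107. Of all genes tested, 0% were called at 0.1 µM, 0.109% at 2.15 µM and 0% between the doses (edgeR). At 0.1 µM 1219 genes had an unadjusted p under 0.05, and between the doses 534 did. DESeq2, run without the filter on low counts, called 177 of 13575 genes at 0.1 µM and 6 between the doses. SLC3A2, the partner of SLC7A5, had 498 and 345 counts at 0.1 µM and 1272 and 890 at 2.15 µM, against 504 and 501 with DMSO. On the CPM scale it measured 587 and 433 at 0.1 µM and 688 and 686 at 2.15 µM, against 541 and 484 with DMSO. The 2.15 µM libraries lay above both DMSO libraries and the 0.1 µM libraries spread around them. Its log2 fold change was 0.42 (SE 0.21, interval -0.05 to 0.89, adjusted p = 0.49) at 2.15 µM and -0.01 (SE 0.21, -0.48 to 0.47, adjusted p = 0.994) at 0.1 µM.

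SLC7A5 had 170 and 152 counts at 0.1 µM and 256 and 226 at 2.15 µM, against 110 and 260 with DMSO. In CPM that was 200.2 and 191 at 0.1 µM and 139 and 174 at 2.15 µM, against 118 and 251 with DMSO. The 2 DMSO libraries lay apart and enclosed all 4 VT107 libraries. Its log2 fold changes of 0.08 (SE 0.36, adjusted p = 0.953) and -0.24 (SE 0.35, adjusted p = 0.851) were within that spread, and at 2.15 µM the value was -0.68 without the first DMSO library and 0.40 without the second. At 0.1 µM it was -0.36 without the first and 0.72 without the second.

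The sodium-coupled carriers SLC38A1 and SLC38A2 had fold changes of opposite sign, and neither passed the test. SLC38A1 measured 244 and 315 CPM at 0.1 µM and 346 and 241 CPM at 2.15 µM, against 176 and 206 CPM with DMSO, from raw counts of 207 and 251 at 0.1 µM and 639 and 312 at 2.15 µM, against 164 and 213 with DMSO. All 4 VT107 libraries lay above both DMSO libraries. The log2 fold change was 0.55 (SE 0.27, interval -0.07 to 1.17, adjusted p = 0.464) at 0.1 µM and 0.62 (SE 0.27, 0.01 to 1.23, adjusted p = 0.425) at 2.15 µM. SLC38A2 measured 625 and 708 CPM at 0.1 µM and 601 and 559.9 CPM at 2.15 µM, against 777 and 685 CPM with DMSO, from raw counts of 531 and 564 at 0.1 µM and 1110 and 726 at 2.15 µM, against 724 and 709 with DMSO. Both libraries at 2.15 µM and 1 of the 2 at 0.1 µM lay below both DMSO libraries. Its log2 fold change was -0.13 (SE 0.18, adjusted p = 0.832) at 0.1 µM and -0.33 (SE 0.18, interval -0.74 to 0.08, adjusted p = 0.548) at 2.15 µM.

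Across the 5 genes, 2 did not overlap between 0.1 µM and DMSO and both were higher, where 39.7% of all genes did not overlap 20.4% being higher and 19.3% lower. At 2.15 µM, 4 did not overlap with DMSO, 3 higher and 1 lower, where 44.7% of all genes did not overlap, 24.1% higher and 20.6% lower. Between 2.15 and 0.1 µM, 4 did not overlap, 2 higher and 2 lower, where the share of all genes was 39.1%, 20.1% higher and 19% lower. At an unadjusted p under 0.05 lay 1 of the 5 genes at 0.1 µM, where 12.1% of all genes did, 2 at 2.15 µM (SLC1A5 and SLC38A1), where 11.6% did, and 0 between the doses, where 5.3% did. With 2 libraries per group, so many genes separate that this says little of a single one. The median log2 fold change of the 5 genes was 0.08 at 0.1 µM, where that of all genes was 0.01, and 0.42 at 2.15 µM, where it was 0.03. Both doses were set against the same 2 DMSO libraries.

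**Figure D3:**
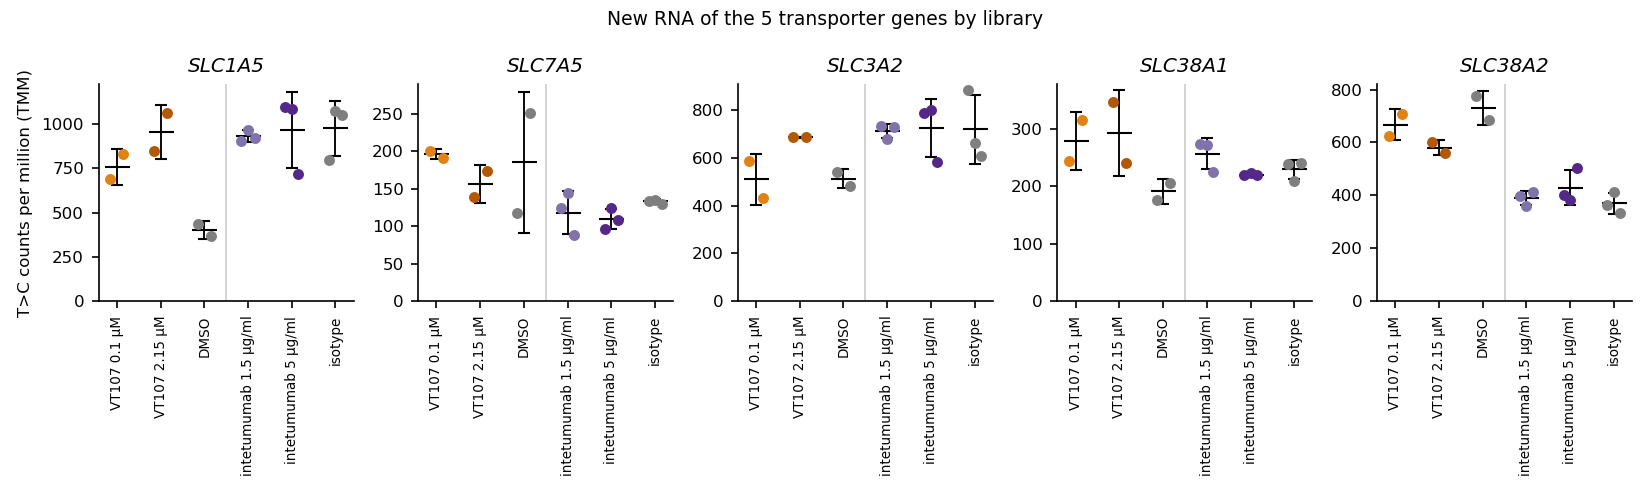
CPM after TMM scaling per library (points) for the 5 transporters by group, with bars for the group mean and SD, each experiment scaled on its own. SLC1A5 lies at 403 CPM on average with DMSO and at 759 and 956 CPM with VT107 at 0.1 and 2.15 µM, and the groups of the intetumumab experiment overlap for SLC1A5, SLC3A2 and SLC38A2.

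With intetumumab, none of the 5 transporters passed the test at either dose. SLC1A5 measured 904, 968 and 919 CPM at 1.5 µg/ml and 1094, 1087 and 717 CPM at 5 µg/ml, against 798, 1072 and 1054 CPM with the isotype. The 3 ranges overlapped, although each library at 5 µg/ml lay outside the isotype range, 2 above it and 1 below. The means were 930.2 ± 33.7 CPM at 1.5 µg/ml and 966 ± 216 CPM at 5 µg/ml, against 975 ± 153 CPM with the isotype (SD, n = 3 each). No unlabelled signal was taken off here either, and the unlabelled count was 50.9% of the isotype mean count. The log2 fold change was -0.07 (SE 0.17, interval -0.44 to 0.3, adjusted p = 0.995) at 1.5 µg/ml and -0.02 (SE 0.17, -0.38 to 0.35, adjusted p = 0.987) at 5 µg/ml. The SLC1A5 fold changes measured with VT107 lie outside both intervals, but the difference between the 2 agents was not tested. The experiments were scaled apart, so the isotype mean of 975 CPM and the DMSO mean of 403 CPM are given side by side only.

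SLC3A2 measured 734, 681 and 729 CPM at 1.5 µg/ml and 790.3, 802 and 585 CPM at 5 µg/ml, against 884, 664 and 610 CPM with the isotype, with log2 fold changes of -0.01 and 0.01 (SE 0.17 each, adjusted p = 0.999 and 0.991). SLC7A5 measured 124, 144 and 87.7 CPM at 1.5 µg/ml and 96.8, 124 and 108 CPM at 5 µg/ml, against 134, 135 and 129.6 CPM with the isotype. All 3 libraries at 5 µg/ml lay below the lowest isotype library, with a log2 fold change of -0.27 (SE 0.22, interval -0.76 to 0.21, adjusted p = 0.754). SLC38A1 measured 274, 272 and 225 CPM at 1.5 µg/ml and 219, 223 and 219 CPM at 5 µg/ml, against 238, 209.9 and 241 CPM with the isotype. It lay lower at 5 than at 1.5 µg/ml with no overlap (log2 fold change -0.23, SE 0.16, adjusted p = 0.901). SLC38A2 measured 398, 361 and 411 CPM at 1.5 µg/ml and 401, 381 and 503 CPM at 5 µg/ml, against 362, 413 and 334 CPM with the isotype, and its groups overlapped (log2 fold change 0.22, SE 0.16, adjusted p = 0.719 at 5 µg/ml).

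None of the 5 genes was called with intetumumab. Of all 9024 genes tested, 0% were called at 1.5 µg/ml, 0.0887% at 5 µg/ml and 0.0111% between the doses (edgeR). At 1.5 µg/ml 494 genes had an unadjusted p under 0.05. DESeq2, run without the filter on low counts, called 41 of 13493 genes there. Of the 5 genes, 0 did not overlap at 1.5 µg/ml, where 12.3% of all genes did not (5.62% higher, 6.72% lower). SLC7A5 was the 1 that did not overlap at 5 µg/ml, where the share was 15.9% (7.64% higher, 8.26% lower), and SLC38A1 the 1 between the doses, where it was 10.8% (5.42% higher, 5.34% lower). At an unadjusted p under 0.05 lay 0 of the 5 genes in these 3 comparisons, where 5.47% of all genes did at 1.5 µg/ml, 9.23% at 5 µg/ml and 5.64% between the doses. The median log2 fold change of the 5 genes was -0.01 at 1.5 µg/ml and -0.02 at 5 µg/ml, where those of all genes were 0.01 and 0.

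**Figure D4:**
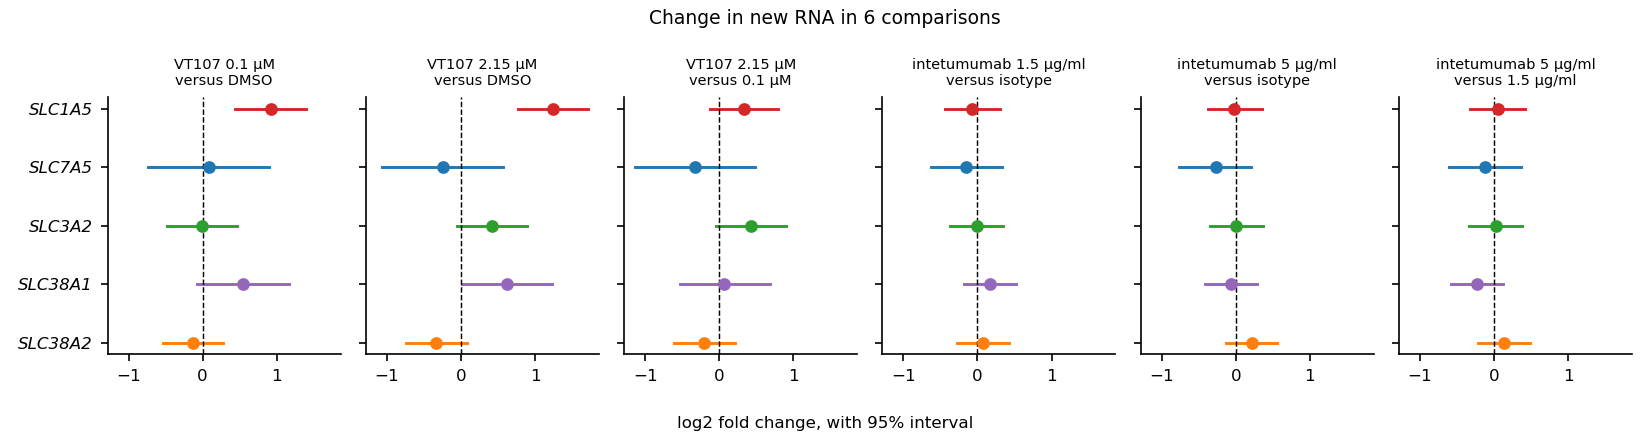
Log2 fold change of each transporter with its 95% interval (lines) in the 6 comparisons, with 0 as no change. No unlabelled counts were taken off. The SLC1A5 intervals lie above 0 in both comparisons of VT107 with DMSO, at 0.44 to 1.39 and 0.77 to 1.72, and span 0 in all others.

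Ratios of raw counts within a library do not depend on scaling and were taken as a description. Those with SLC1A5 still hold its unlabelled signal, 388 and 396 counts in the unlabelled libraries, where SLC38A2 had 1 and 2. They are thus not ratios of new RNA alone. SLC7A5 over SLC3A2, the 2 chains of the leucine carrier, was 0.341 and 0.441 at 0.1 µM and 0.201 and 0.254 at 2.15 µM, against 0.218 and 0.519 with DMSO. The 2 DMSO libraries lay far apart, and both doses overlapped their range. SLC1A5 over SLC38A2 was 1.1 and 1.17 at 0.1 µM and 1.41 and 1.9 at 2.15 µM, against 0.564 and 0.536 with DMSO, so the ratio was higher in all 4 VT107 libraries. SLC38A1 over SLC38A2 was 0.39 and 0.445 at 0.1 µM and 0.576 and 0.43 at 2.15 µM, against 0.227 and 0.3 with DMSO, and also lay higher in all 4. Both ratios set a gene that measured higher with VT107 over SLC38A2, which measured lower, so they repeat the fold changes above. How many pairs of genes would separate in this way was not counted. For intetumumab SLC1A5 over SLC38A2 was 2.27, 2.68 and 2.23 at 1.5 µg/ml, with 2.73, 2.85 and 1.42 at 5 µg/ml, against 2.2, 2.6 and 3.16 with the isotype, and its groups overlapped. All labelled intetumumab libraries but 1 lay above the highest VT107 library, at 1.9, for this ratio.

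**Figure D5:**
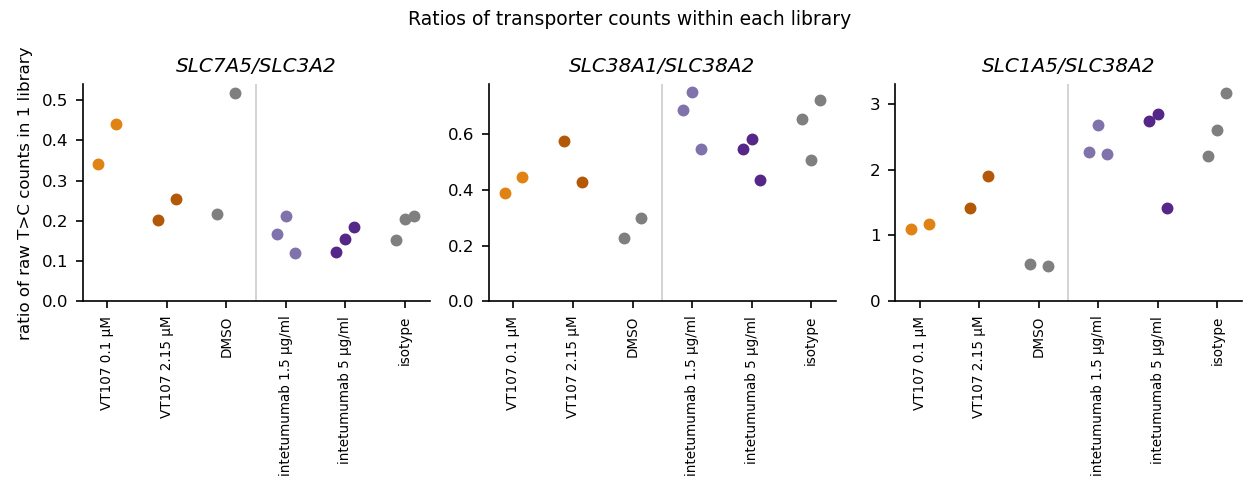
Ratio of raw T>C counts of 2 transporters within each library (points) by group. SLC1A5 over SLC38A2 is lowest in the 2 DMSO libraries, at 0.564 and 0.536, and SLC7A5 over SLC3A2 spreads from 0.218 to 0.519 within DMSO alone.

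Counts of SLC1A5 and SLC7A5 had a pattern in their values. SLC1A5 was a multiple of 4 in 12 of the 15 labelled libraries and in both unlabelled ones, and SLC7A5 was even in all 15 labelled libraries. Of 9757 genes examined, 3.67% had at least 12 multiples of 4 and 14.9% had a common divisor above 1. With SLC1A5 divided by 4 the adjusted p was 0.281 at 0.1 µM and 0.13 at 2.15 µM.

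The 2 genes next in unlabelled counts are ENSG00000156482, with 280 unlabelled counts beside VT107 and 373 beside intetumumab, and ENSG00000169908, with 216 and 99. At 2.15 µM against DMSO their log2 fold changes were -0.02 (SE 0.19, adjusted p = 0.974) and 0.24 (SE 0.18, adjusted p = 0.669). At 0.1 µM against DMSO they were -0.32 (SE 0.19, adjusted p = 0.56) and 0.54 (SE 0.18, adjusted p = 0.318). Neither gene passed the test at either dose, and both were chosen after their values were seen.

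The genes whose levels followed SLC1A5 most closely over the 15 labelled libraries, by the root mean square difference of log2 CPM centred within each experiment, were ENSG00000122644 at 0.17 and ENSG00000112245 at 0.21, among 4428 genes with a median of 0.52. Both were picked by this likeness, so levels that run with those of SLC1A5 follow from the choice. ENSG00000122644 averaged 769 ± 20.4 CPM at 0.1 µM and 778 ± 25.6 CPM at 2.15 µM, against 414 ± 42 CPM with DMSO (SD, n = 2 each). With intetumumab it averaged 851 ± 50.6 CPM at 1.5 µg/ml and 974 ± 98.6 CPM at 5 µg/ml, against 916 ± 144 CPM with the isotype (SD, n = 3 each). A gene that stayed at its mean in every library would lie at 0.38 from SLC1A5. Of the other 4 transporters SLC38A1 lay at 0.31 and SLC3A2 at 0.36, little nearer than that, and SLC7A5 and SLC38A2, both at 0.49, lay farther.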

How the data were processed

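The deposited values are raw counts of T>C reads per Ensembl gene, made by the authors with SLAM DUNK, per the series design text, from QuantSeq 3′ libraries. The build was GRCh38 (submitters' processing notes). The conversions required per read, and how multi-mapped reads were counted, are not stated in those sources. All 17 columns matched a sample by name. Each experiment was fitted apart, with its labelled libraries sharing 1 spread, in edgeR 4.0.16 (R 4.3.3): filterByExpr with a minimum count of 10, TMM, two-sided quasi-likelihood F-test, Benjamini-Hochberg over 10083 (VT107) and 9024 (intetumumab) genes, called under 0.05. All 5 genes passed both filters. DESeq2 1.42.0 was an alternative, run without that filter on 13575 (VT107) and 13493 (intetumumab) genes. Levels used for likeness had a prior count of 2. The fit was tested on simulated data.

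The 5 genes, lists and tests were chosen with earlier results of these data known. The 5 genes are always named, with the 2 most like SLC1A5 by the stated measure. The 2 next by unlabelled count were chosen after their values were seen. The RefSeq gene table pairs 0 genes with an Ensembl ID, so a wider transport list and cell type markers were not tested here. Replicates differed by more than independent counts would (chi-square per degree of freedom 3.66 to 8.52). Counts that come in multiples also raise this value, so it does not tell separate replicates from repeats. Each library was counted once.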

Additional observations from a re-analysis of the deposited data

How the results depend on the processing

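The libraries are few. SLC1A5 kept its direction against DMSO under every alternative run, with log2 fold changes of 0.77 to 1.04 at 0.1 µM and 1.08 to 1.4 at 2.15 µM where no unlabelled count was subtracted. It became the 1 of 5 genes called at 0.1 µM without the filter on low counts (0.91, adjusted p = 0.0345) and by DESeq2 (0.9, 0.00405). At 2.15 µM it was the 1 called without the filter (1.27, 0.00129), with all 15 labelled libraries in 1 fit (1.25, 0.00738) and by DESeq2 (1.23, 5.74e-06). The cause was not tested. Subtracting the unlabelled count also called 1, but uses the count by which SLC1A5 was chosen and leaves DMSO at about 0, so no weight is put on it, nor on the subtraction scaled by library total, chosen after seeing the data. Leaving out any 1 library called 0 of the 5 genes in each comparison. The unlabelled SLC1A5 count was 98.5% of the DMSO mean and 50.9% of the isotype mean, and its share of the library was 51 and 92.2 times that in the labelled libraries.

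Total count scaling shifted the all-gene median to 0.12 at 0.1 µM, against 0.01, and to 0.18 at 2.15 µM, against 0.03. Small values changed sign. Under total count scaling SLC3A2 was 0.1 at 0.1 µM and 0.02 at 1.5 µg/ml, and SLC1A5 was 0.02 at 5 µg/ml. With the scaled unlabelled count subtracted SLC1A5 was 0.01 at 5 µg/ml, and with the unlabelled count subtracted it was -0.05 between 5 and 1.5 µg/ml. Leaving out 1 library gave ranges across 0 for SLC3A2 of -0.25 to 0.19 at 0.1 µM, -0.12 to 0.16 at 1.5 µg/ml, -0.1 to 0.19 at 5 µg/ml and -0.06 to 0.16 between these doses. For SLC7A5 they were -0.36 to 0.72 at 0.1 µM, -0.68 to 0.4 at 2.15 µM, -0.32 to 0.01 at 1.5 µg/ml and -0.28 to 0.05 between 5 and 1.5 µg/ml. For SLC38A1 it was -0.21 to 0.32 between 2.15 and 0.1 µM, and for SLC1A5 -0.14 to 0.16 at 5 µg/ml and -0.04 to 0.23 between 5 and 1.5 µg/ml.

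Same-numbered libraries showed no shared deviation (correlations -0.02 to 0.01 with VT107 and -0.02 to 0.07 with intetumumab), which does not exclude that they were paired. With a replicate block 0 of the 5 genes were called in each comparison, SLC1A5 was 0.91 (adjusted p = 0.32) at 0.1 µM and 1.24 (0.147) at 2.15 µM, and SLC3A2 was 0.01 at 1.5 µg/ml. Genes called at 2.15 µM numbered 11, against 5 with total count scaling, 5 with the block, 199 without the filter, 155 with all libraries, 233 by DESeq2, 1 with only the 2 groups in the fit and 1 to 26 with 1 library left out (26 without the second DMSO library). At 5 µg/ml they numbered 8, against 1 with the block, 13 without the filter, 15 with all libraries, 103 by DESeq2, 1 with only the 2 groups and 0 to 3 with 1 library left out. At 0.1 µM they numbered 0, against 171 without the filter, 72 with all libraries and 177 by DESeq2. Between 2.15 and 0.1 µM they numbered 0, against 4 without the filter and 6 by DESeq2. At 1.5 µg/ml they numbered 0, against 1 with only the 2 groups and 41 by DESeq2, and between the antibody doses 1, against 0 with the block or all libraries and 0 to 2 with 1 library left out.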
